A study of Rattus norvegicus with 28 samples.

Results

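The genes described here encode the pore-forming and auxiliary subunits of voltage-gated sodium channels (Scn), voltage-gated calcium channels (Cacn) and potassium channels (Kcn). They were chosen by name alone: every probe whose accession maps to a rat gene symbol beginning with Kcn, Cacn, or Scn and a digit, provided that the probe was well above background on all arrays of at least 1 group. This rule kept 107 of the 170 channel probes on the array, covering 88 of the 129 channel genes with a probe, among 17322 probes kept in all. The RNA came from whole hippocampus of adult male Sprague-Dawley rats, taken 24 h after sham injury (Sham, n = 2) or fluid percussion traumatic brain injury (TBI, n = 3). In 3 further groups of n = 3, injured rats received an antidepressant 1 h after the injury. The drugs were imipramine, a tricyclic, and the serotonin reuptake inhibitors Prozac (fluoxetine) and Zoloft (sertraline), all at the same dose by body weight. Each array holds 1 rat, and no sham-injured rat among these arrays received a drug.

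Voltage-gated sodium channels carry the rising phase of the action potential, voltage-gated calcium channels couple depolarization to transmitter release, gene regulation and burst firing, and potassium channels repolarize the membrane and set its resting level. Each channel is built from a pore-forming alpha subunit and from auxiliary subunits that set its trafficking and gating. In the hippocampus the mixture of subunits sets how readily pyramidal cells, granule cells and interneurons fire, while glia, vascular cells and choroid plexus each use potassium channels of their own.

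A value below is the log2 of a probe's background-subtracted signal after division by the 75th percentile of its array, so a negative value lies under that percentile and a difference of 1 is a doubling. Levels of different probes are not comparable, and comparisons are made within a probe. Between 14676 and 18196 probes per array were well above background. The hippocampal genes Neurod6, Wfs1, Calb1 and Fibcd1 were measured in the tissue, and Prox1 did not pass the background filter. Both Sham arrays were on a slide of their own that was scanned on another day, so slide and sham injury cannot be told apart in any comparison with Sham. Transthyretin (Ttr), the defining transcript of choroid plexus, split the arrays: 7 arrays had values of 4.83 or more and the other 7 had 0.90 or less, with both kinds in every group. Because each RNA is a mixture of cells, fewer cells of a type and less RNA per cell cannot be told apart.

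Before the values, the stretches of 250 bases upstream of the start of 4 genes that fell after injury are shown as examples from the calcium and potassium channel calls. The sequences and the GRCr8 coordinates are those of RefSeq, and 64 of the 88 channel genes, 9 of the 12 genes called after injury among them, had an entry. They are written 5′ to 3′ on the strand of the gene, with matches on either strand to a GC box (GGGCGG), a half-site of the cyclic AMP response element (TGACG) or an E-box (CACGTG) in capitals. The regions are chr3:27944286-27944535 on the minus strand for Cacna1b, chr4:154051749-154051998 on the minus strand for Cacna1c, chr7:131666301-131666550 on the plus strand for Cacnb3, and chr10:86188477-86188726 on the minus strand for Kcnh4.
Cacna1b: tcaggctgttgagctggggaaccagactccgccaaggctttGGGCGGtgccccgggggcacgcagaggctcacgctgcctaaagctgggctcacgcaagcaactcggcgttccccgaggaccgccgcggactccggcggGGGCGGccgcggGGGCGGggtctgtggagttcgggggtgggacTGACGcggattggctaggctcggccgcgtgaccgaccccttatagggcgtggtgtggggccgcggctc
Cacna1c: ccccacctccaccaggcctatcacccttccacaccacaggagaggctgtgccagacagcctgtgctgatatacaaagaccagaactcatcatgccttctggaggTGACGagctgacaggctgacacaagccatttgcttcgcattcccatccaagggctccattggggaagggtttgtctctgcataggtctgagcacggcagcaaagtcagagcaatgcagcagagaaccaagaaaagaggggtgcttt
Cacnb3: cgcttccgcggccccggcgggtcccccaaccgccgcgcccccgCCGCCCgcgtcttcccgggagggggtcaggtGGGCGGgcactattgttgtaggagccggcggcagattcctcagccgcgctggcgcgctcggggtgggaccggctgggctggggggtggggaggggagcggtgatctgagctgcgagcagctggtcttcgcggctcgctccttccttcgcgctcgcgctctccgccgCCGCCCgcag
Kcnh4: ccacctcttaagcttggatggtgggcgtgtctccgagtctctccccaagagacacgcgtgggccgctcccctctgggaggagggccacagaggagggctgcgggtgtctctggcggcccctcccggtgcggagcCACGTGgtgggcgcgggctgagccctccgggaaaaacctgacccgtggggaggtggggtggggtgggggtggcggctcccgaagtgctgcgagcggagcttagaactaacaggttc
The Cacna1b stretch held 3 GC boxes and 1 half-site, the Cacna1c stretch 1 half-site, the Cacnb3 stretch 3 GC boxes and the Kcnh4 stretch 1 E-box. Of the called genes with an entry that are not shown, Kcng2 held 2 GC boxes and Kcnt2 held 1. Cacng2, Kcnmb2 and Scn4b held no match. Among the 64 channel genes 31 (48.4%) had a GC box, against 30.5% of 33469 promoters of the same length. The half-site was present in 11 (17.2%) against 18.2%, and the E-box in 1 (1.56%) against 5.59%. A match is a description of letters, not a binding site.

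The comparison of TBI with Sham sets injured rats given no drug beside sham-injured rats, whose arrays were on another slide. Most channel probes were lower in TBI, and few passed the test singly. Of the 107 probes 78 (72.9%) had a difference below 0, compared with 49.9% of all 17322 probes. The median difference was −0.28 for the channel probes and 0.00 for all probes. Cacnb4 probe 1, Kcnma1 probe 2 and Kcnq1, which are among the 78, were kept only through Sham. They had to be high there, so the filter favoured a decrease. With only probes above background on all arrays, the medians were −0.30 for the channel probes and 0.01 for all probes. In limma with Benjamini-Hochberg adjustment over all probes, 14 channel probes of 12 genes passed at an adjusted p of 0.05. Those 14 are 13.1% of the channel probes, beside 16.6% of all probes tested, a share below that of all probes. The directions were unequal: 3 rose (2.8%, beside 8.3% of all probes) and 11 fell (10.3%, beside 8.32%). In each of the 14 the Sham and TBI arrays did not overlap. These same arrays chose the 14 probes, and the share of all probes without overlap was not taken, so this is descriptive.

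By family, median differences were below 0 in each of the 11 families, and they stayed below 0 under each of the other scalings tried. The 4 sodium alpha probes had the lowest median, −0.62, and none passed. The 4 sodium beta probes had a median of −0.54 with 1 lower (−0.41 with Scn2b, which no TBI array had above background, at its bound), and the 10 calcium alpha1 probes −0.49 with 4 lower. For the 4 probes of the gamma family, which includes regulators of AMPA receptors, the median was −0.46 with 1 lower. The calcium beta probes (6, median −0.29) had 1 lower, and neither of the 2 calcium alpha2delta probes (median −0.06) passed. Among potassium channels, the 31 voltage-gated alpha probes had a median of −0.34 with 2 lower, and their 11 auxiliary probes −0.23 with none passing. Medians were smaller for the 14 probes of channels gated by calcium or sodium (−0.15, 2 higher and 2 lower), the 10 inward rectifiers (−0.15, none passing) and the 11 of the two-pore leak channels (−0.14, 1 higher).

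**Figure D1:**
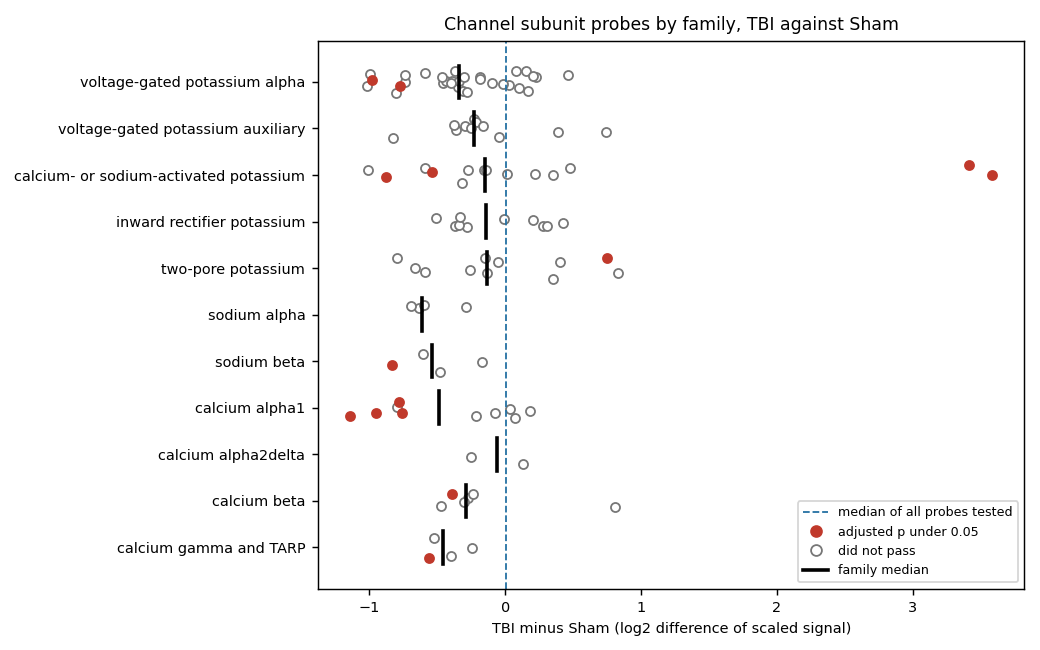
Difference between the TBI and Sham means (log2 of scaled signal) for each of the 107 channel probes, by family, with filled points for adjusted p under 0.05, black bars for family medians and a dashed line for the median of all probes tested. All 11 family medians lie left of 0, and the 2 Kcnn4 probes lie farthest to the right, probe 1 at a measured difference from Sham arrays that were not above background.

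Calcium channel pores gave the clearest decreases. Cacna1i encodes Cav3.3, a low-threshold T-type channel that supports rebound bursts, and both of its probes fell. Probe 1 read −0.75 and −0.65 in Sham and −1.96, −1.79 and −1.78 in TBI, a difference of −1.14 ± 0.13 (SE, adjusted p = 0.000282) or 2.21-fold lower. Probe 2 read −2.52 and −2.57 in Sham and −3.74, −3.56 and −3.19 in TBI, a difference of −0.95 ± 0.16 (SE, adjusted p = 0.00198). The 2 probes thus give like sizes, and the gap between groups exceeded the spread within either. Cacna1b encodes Cav2.2, the N-type channel of presynaptic terminals. Its values were −0.34 and −0.12 in Sham and −1.20, −1.001 and −0.77 in TBI, 1.7-fold lower (−0.76 ± 0.16 SE, adjusted p = 0.00665). Cacna1c, the L-type pore Cav1.2 that links synaptic activity to transcription, read −3.17 and −3.29 in Sham and −4.00, −4.08 and −3.96 in TBI, 1.72-fold lower (−0.78 ± 0.19 SE, adjusted p = 0.016). The decreases of both were similar in size. Cacnb3, which encodes a cytoplasmic beta subunit, read 2.14 and 2.21 in Sham and 1.68, 1.76 and 1.91 in TBI, 1.31-fold lower (−0.39 ± 0.12 SE, adjusted p = 0.0462). Cacng2 encodes stargazin, which carries AMPA receptors to the synapse. It fell 1.48-fold, from 0.39 and 0.51 in Sham to −0.39, −0.08 and 0.12 in TBI (adjusted p = 0.0425).

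The calcium channel genes that did not pass include well known hippocampal pores. Cacna1a, the P/Q-type channel of presynaptic terminals, differed by 0.04 ± 0.32 (SE) and Cacna1e, the R-type channel, by 0.07 ± 0.22. For the T-type genes Cacna1g and Cacna1h the differences were −0.22 and −0.08 on the 2 probes of the first and −0.80 ± 0.51 for the second. In Cacna1h the Sham arrays themselves were far apart, at −2.05 and −0.28. Cacna2d1, the alpha2delta subunit bound by gabapentin, differed by 0.13 ± 0.20 (SE), and Cacna2d3 by −0.25 ± 0.13.

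Among potassium channels, 4 probes fell. Kcnh4 encodes Kv12.3, an Elk-type channel active at subthreshold voltages. It read −3.15 and −2.95 in Sham and −4.44, −3.86 and −3.78 in TBI, 1.97-fold lower (−0.98 ± 0.21 SE, adjusted p = 0.00943). Kcng2 encodes Kv6.2, a silent subunit that is active only together with other Kv subunits. Its Sham values were 0.03 and 0.29 and its TBI values −0.52, −0.59 and −0.75, 1.71-fold lower (−0.78 ± 0.17 SE, adjusted p = 0.00972). In both genes the lower Sham array was above the highest TBI array. Kcnt2, the sodium-activated channel Slick, read −4.15 and −4.27 in Sham and −4.94, −4.65 and −4.65 in TBI (1.45-fold lower, adjusted p = 0.0202), and with normexp the difference was −0.31 and did not pass. Kcnmb2 encodes the inactivating beta subunit of the large-conductance BK channel. Its second probe read −4.48 and −4.41 in Sham and −5.30, −5.91 and −4.77 in TBI (1.84-fold lower, adjusted p = 0.0393), while the first, above background on 7 of 14 arrays, differed by −0.32 ± 0.47 (SE).

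Other voltage-gated potassium channels of hippocampal neurons did not pass. Kcna1 (Kv1.1, axonal) differed by −0.46 ± 0.18 (SE, adjusted p = 0.0959). The Kv3 genes of fast-spiking interneurons, Kcnc1 and Kcnc2, differed by −0.60 ± 0.25 for the first and by −0.74 and −0.37 on the 2 probes of the second. Kcnd2 (Kv4.2, dendritic A-type) gave −0.39 and 0.03 on its 2 probes. The M-current genes Kcnq3 and Kcnq5 gave values from −0.999 to 0.10 over 4 probes, and the bright probe of Kcnab1, the Kvbeta1 subunit, differed by −0.83 ± 0.29 (SE, adjusted p = 0.0721). In the inward rectifier and leak families, Kcnj6, a G protein-gated Girk subunit, differed by −0.51 ± 0.19 (SE, adjusted p = 0.0908) and Kcnk1, a leak channel, by −0.80 ± 0.27 (SE, adjusted p = 0.0615). A list of channel genes was drawn up by function, with earlier results of these data known. It also held channel genes of immune cells, microglia and choroid plexus. Of its 53 probes for 43 genes, 3 rose, 4 fell and 46 did not pass, 37 of those 46 with a difference below 0. The 3 that rose were those of Kcnn4 and Kcnk6. Of all probes tested, 8.3% rose and 8.32% fell, and 49.9% had a difference below 0.

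All 8 sodium channel probes had a difference below 0, and 1 passed. Scn4b, the beta subunit that promotes resurgent current, read −1.15 and −0.78 in Sham and −2.21, −1.48 and −1.71 in TBI, 1.79-fold lower (−0.84 ± 0.24 SE, adjusted p = 0.0343). Scn1a, the main pore of inhibitory interneurons, read 0.56 and 0.42 in Sham and −0.59, −0.15 and 0.30 in TBI (−0.64 ± 0.21 SE, adjusted p = 0.0563). Its groups did not overlap, but the TBI arrays spanned more than the gap. Scn2a, the pore of excitatory neurons, differed by −0.29 ± 0.14 (SE), and Scn8a, the pore of the axon initial segment, by −0.69 ± 0.26. The embryonic pore Scn3a differed by −0.60 ± 0.26 (SE), and the beta subunit gene Scn3b by −0.48. Scn2b, another beta subunit, was above background on both Sham arrays and on 0 of 3 TBI arrays, at least 1.28-fold lower (adjusted p = 0.221). None of those 5 passed. Scn2b met the background filter in Sham and not in TBI, so the filter favoured a decrease in this 1 of the 8 probes.

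Kcnn4 had the largest increase among the 88 channel genes. It encodes KCa3.1, a calcium-activated potassium channel of immune and blood cells and of activated microglia. Probe 1 read −8.30 and −6.09 in Sham, not well above background on either array, and −3.18, −3.70 and −3.96 in TBI. Against the lowest signal that each Sham array could tell from background, or the probe's own signal where that was higher, TBI was at least 5.99-fold higher (adjusted p = 0.00162). This bound holds for the scanner's own background subtraction. Probe 2 read −7.91 and −5.41 in Sham, above background on 1 of 2 arrays, and −2.65, −3.41 and −3.70 in TBI, a difference of 3.41 ± 0.64 (SE, adjusted p = 0.00442). With a normexp background correction, which adds an offset to dim signals, the differences were 1.27 for probe 1 and 1.25 for probe 2, and both passed. The Sham arrays differed from each other by more than the TBI arrays did, and every TBI array was above both. Kcnk6 encodes TWIK-2, a two-pore leak channel. It rose 1.68-fold, from −4.21 and −4.62 in Sham to −3.97, −3.44 and −3.59 in TBI (adjusted p = 0.0402), and with normexp the difference was 0.28 and did not pass. Kcnk13 (THIK-1), a leak channel of microglia, read −3.13 and −3.35 in Sham and −2.48, −2.41 and −2.33 in TBI without passing (0.83 ± 0.30 SE, adjusted p = 0.0796). Markers of other cells moved in the same comparison. Of 9 probes for microglia and macrophage genes 4 rose, and their summed level was 2.49 to 3.12 in Sham and 3.72 to 3.76 in TBI. Leukocyte genes had 3 of 5 probes higher, with sums of −2.68 to −2.19 in Sham and −0.60 to 1.52 in TBI, and all 4 reactive glia probes rose. Neuronal genes had 2 of 11 probes lower, with sums of 5.02 to 5.08 in Sham and 4.70 to 5.04 in TBI, and 1 of 5 probes for inhibitory neurons, that of somatostatin (Sst), fell. The part of these cells in the channel differences was not tested.

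**Figure D2:**
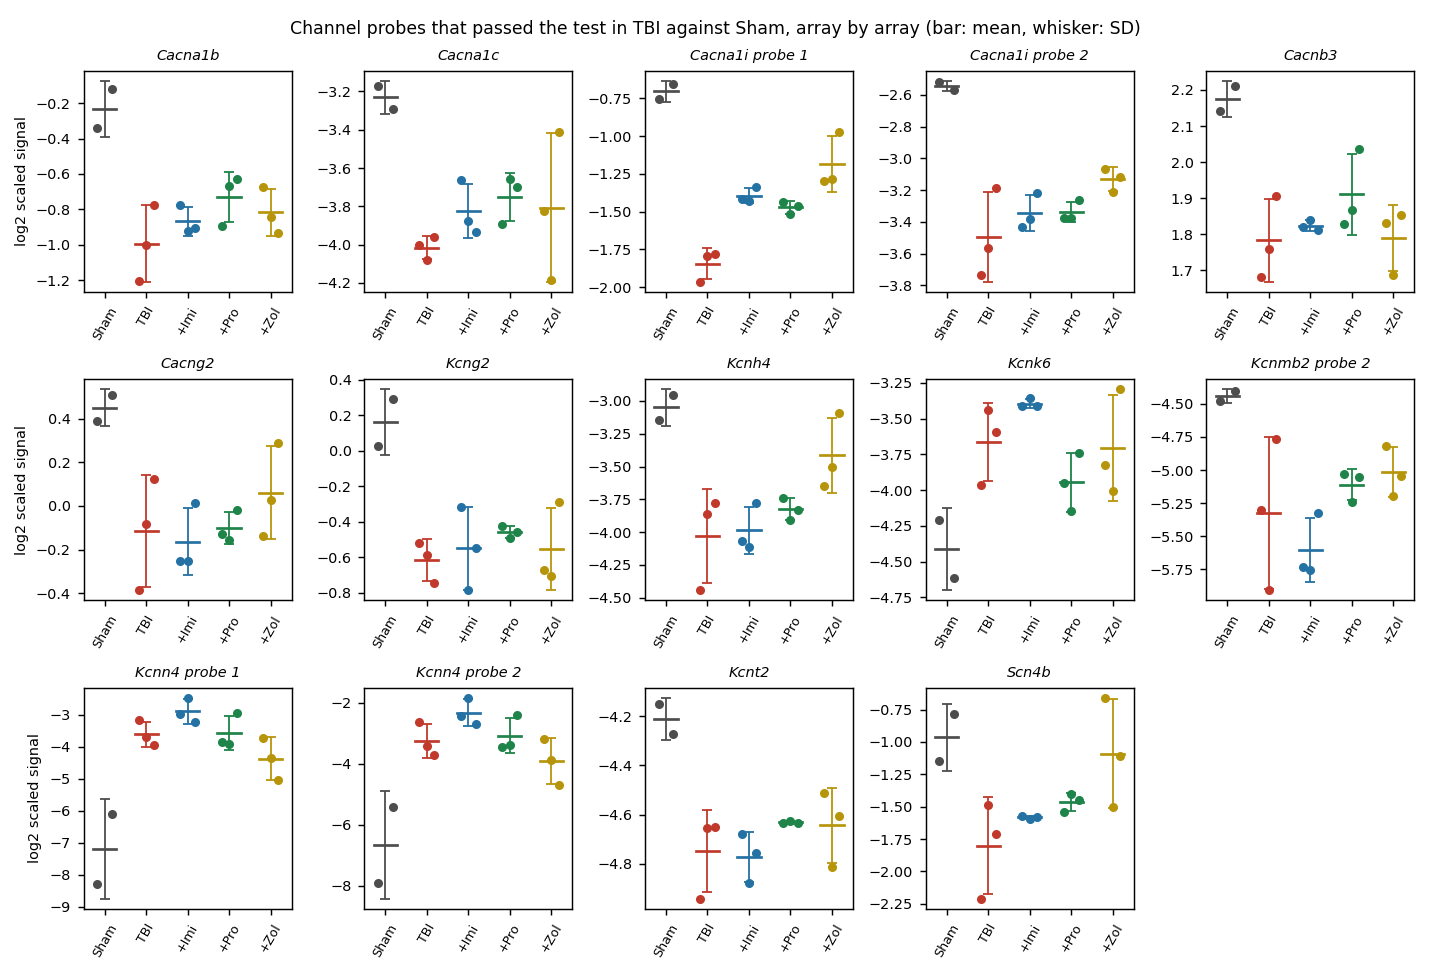
Log2 scaled signal of the 14 channel probes called in TBI against Sham, with 1 point per array in the Sham, TBI, TBI+Imipramine (+Imi), TBI+Prozac (+Pro) and TBI+Zoloft (+Zol) groups, bars at the mean and whiskers of 1 SD. The Sham and TBI points do not overlap in any panel, in probes chosen by the test on these same arrays. In the Kcnn4 panels all 9 drug-treated points lie above both Sham points.

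Proteins that bind, anchor or gate channels were listed separately, 32 genes of which 18 had a kept probe. Of their 20 probes 0 rose and 4 fell in TBI, beside 8.3% and 8.32% of all probes, and the median difference was −0.06. Ank3, ankyrin-G, which anchors sodium and M-type channels at the axon initial segment, fell from −2.63 and −2.38 in Sham to −3.35, −3.24 and −3.33 in TBI (−0.80, adjusted p = 0.00165). Abcc8, the sulfonylurea receptor of ATP-sensitive potassium channels, fell from −0.69 and −0.32 in Sham to −1.40, −1.11 and −1.20 in TBI (−0.73, adjusted p = 0.00658). Cntn2, which clusters Kv1 channels beside the node, differed by −0.79 (adjusted p = 0.0254). Lrrc26, an auxiliary subunit of BK channels, was above background on both Sham arrays and on no TBI array, at least 1.56-fold lower (adjusted p = 0.00292). It was kept only through Sham, where it had to be high, so the filter favoured a decrease. The decreases of Ank3, Abcc8 and Cntn2 were of the sizes seen among the channels, and the list's median lay near the 0.00 of all probes.

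Counts in this comparison depended on single arrays. Without Sham array 2, 4 channel probes passed, both probes of Cacna1i and of Kcnn4. Without Sham array 1, 9 passed, and Cacna1b, Kcng2 and Kcnh4 were the other probes of the 14 among them. Leaving out TBI array 1 gave 10 calls and leaving out TBI array 2 also gave 10. Cacnb3, Cacng2 and the Kcnmb2 probe were lost in both cases, Scn4b in the first and Kcnk6 in the second. Leaving out TBI array 3 raised the count to 29, of which 27 were lower, with Kcnk6 lost. Without the 7 arrays high in Ttr, 9 probes passed, and those from the 14 were again both probes of Cacna1i and of Kcnn4. All 14 kept their direction under every alternative that measured them. Cacnb3 also did not pass with normexp, nor the Kcnmb2 probe with the authors' table. With a normexp background correction the split of calls was 2 higher and 16 lower, with no share of all probes taken.

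Where a gene had more than 1 kept probe, the probes often differed. Among the 18 such genes, with 37 probes, 9 had differences of 1 sign in TBI against Sham and 9 did not. Cacna1i and Kcnn4 were called on both probes, and Kcnmb2 on 1 of 2. For the other 15 genes with several probes, none of the probes was called.

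The groups given a drug were compared with the same 2 Sham arrays, so these comparisons share their reference. Passing probes numbered 17 in TBI+Imipramine (15.9%, beside 23.4% of all probes), 8 in TBI+Prozac (7.48%, beside 14.9%) and 7 in TBI+Zoloft (6.54%, beside 5.95%). In all, 20 probes passed in at least 1 of the 4 injured groups. Both Kcnn4 probes, Kcng2 and Cacna1i probe 2 passed in all 4. Kcnn4 probe 1 was at least 9.85-fold higher than Sham with imipramine, 6.14-fold with Prozac and 3.54-fold with Zoloft on the scanner's background subtraction. With normexp its differences were 1.76, 1.21 and 0.88 on the log2 scale, and neither Kcnn4 probe passed for Zoloft. Probe 1 read −2.98, −2.47 and −3.23 with imipramine, −3.86, −3.91 and −2.95 with Prozac, and −3.71, −4.35 and −5.05 with Zoloft. All 9 drug-treated arrays were thus above both Sham arrays, with the lowest value in a Zoloft array. The summed level of microglia and macrophage genes was 3.96 to 4.32 with imipramine, 3.55 to 4.16 with Prozac and 3.62 to 3.83 with Zoloft, all above Sham. Kcng2 was lower than Sham by 0.71 with imipramine, 0.62 with Prozac and 0.72 with Zoloft on the log2 scale (adjusted p = 0.0113, 0.0318 and 0.0304).

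Other channel genes passed against Sham in a drug group and not in TBI, which does not show that they differed from TBI. In TBI+Imipramine, Kcnk13 was 2.16-fold higher (1.11 ± 0.30 SE, adjusted p = 0.0194), Kcnj8, the Kir6.1 pore of vascular ATP-sensitive channels, 1.75-fold higher (0.81 ± 0.21 SE, adjusted p = 0.0173), and Kcnh6, an Erg-type channel, 1.56-fold lower (−0.64 ± 0.21 SE, adjusted p = 0.0455). From TBI they differed by 0.28, 0.38 and −0.18 (adjusted p = 0.577, 0.288 and 0.618). With normexp the Kcnj8 difference from Sham was 0.38 and did not pass. Kcne5, a single-span subunit that slows or silences Kv7 channels, passed on probe 1 in TBI+Imipramine (0.90 ± 0.21 SE, adjusted p = 0.00932) and TBI+Prozac (1.17 ± 0.21 SE, adjusted p = 0.00451). With normexp these became 0.09 and 0.17, and neither passed. In TBI+Zoloft, Cacna2d3 was 1.42-fold lower (−0.50 ± 0.13 SE, adjusted p = 0.0481), and it differed from TBI by −0.25 (adjusted p = 0.357). The dim probe of Kcnab1 was not above background on either Sham array and was kept only through TBI+Prozac, where it had to be high. Against the lowest signal Sham arrays could tell from background, its means were 1.47-fold higher with imipramine, 1.35-fold with Prozac and 1.41-fold with Zoloft. The measured differences had adjusted p = 0.0122, 0.0264 and 0.04 in limma. With normexp the differences were 0.05, 0.02 and 0.25 on the log2 scale and did not pass. The probe was above background on 2, 3 and 1 of the 3 arrays of those groups, so the imipramine and Zoloft means include dim arrays. The bright Kcnab1 probe did not pass in any of the 3 groups. Split by direction, 7 probes were higher and 10 lower with imipramine, beside 19.8% and 3.6% of all probes. The split was 4 and 4 with Prozac (beside 11.7% and 3.16%) and 3 and 4 with Zoloft (beside 4.16% and 1.8%). Quantile normalization changed these splits to 6 and 37, 4 and 14, and 5 and 9, and normexp changed them to 3 and 11, 2 and 10, and 0 and 2. Shares of all probes were not taken under those 2 settings. All probes together had a median of 0.18 above Sham in TBI+Imipramine and 0.14 in TBI+Prozac, against 0.00 in TBI+Zoloft, while the channel medians were −0.24, −0.08 and −0.21. Quantile normalization gave channel medians of −0.50, −0.27 and −0.28, and without Sham array 1 the Prozac median was 0.01.

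**Figure D3:**
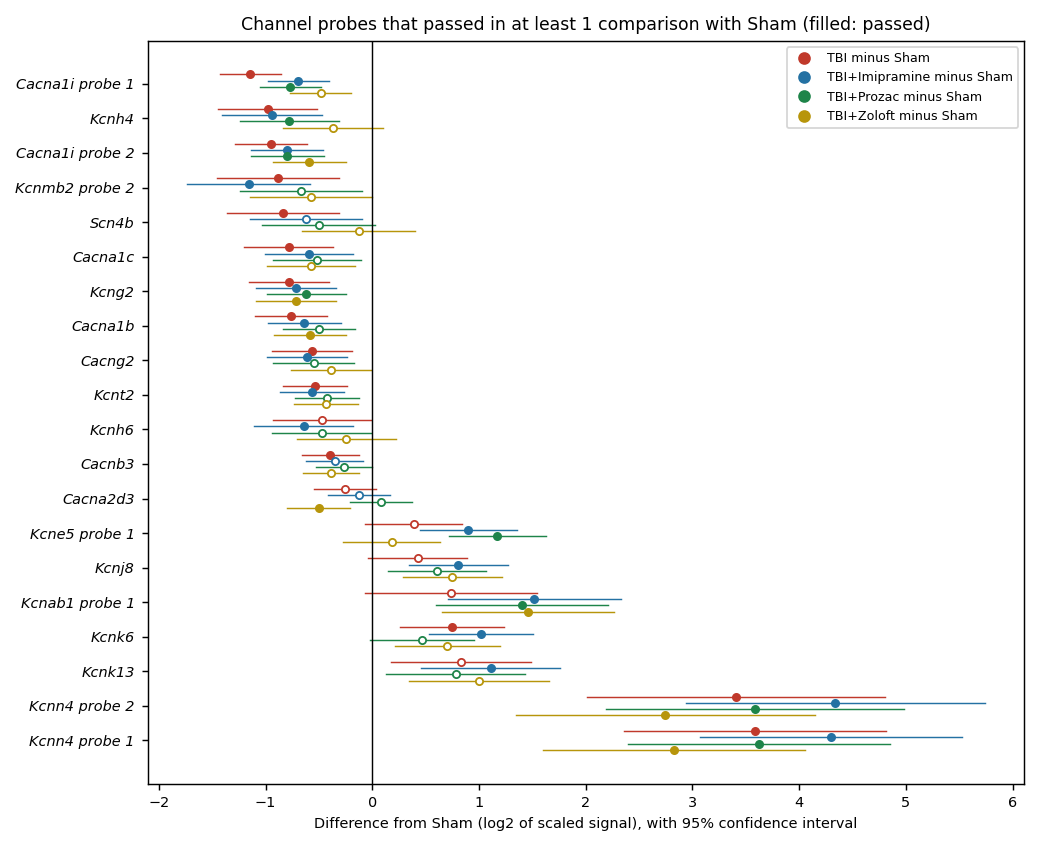
Difference from Sham (log2 of scaled signal) with its 95% confidence interval for the 20 channel probes that passed in at least 1 comparison with Sham, with 1 colour per injured group and filled points for adjusted p under 0.05. The 12 probes at the top from Cacna1i to Cacnb3 lie left of 0 in all 4 groups, and the Kcnn4 probes lie farthest to the right, probe 1 at measured differences from Sham arrays that were not above background.

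Single arrays decided these counts too. Calls in TBI+Imipramine fell to 6 without Sham array 2 and to 9 without imipramine array 2. In TBI+Prozac they fell to 3 without Sham array 1 and to 5 without Sham array 2 or Prozac array 1. In TBI+Zoloft they fell to 1 without Sham array 1, to 2 without Sham array 2 or Zoloft array 2, and to 4 without Zoloft array 1.

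The comparison of each drug group with TBI sets injured rats given a drug beside injured rats given none. All TBI arrays were on the first slide with Prozac array 1, and all imipramine and Zoloft arrays were on the second. Slide and drug can therefore be told apart only through the Prozac arrays, which were on both slides. Few channel probes passed: 1 in TBI+Imipramine (0.935% of channel probes and higher, beside 2.85% of all probes and 2.82% that were higher), 0 in TBI+Prozac (beside 0.00577%) and 1 in TBI+Zoloft (0.935% and higher, beside 1.38% and 1.16% that were higher). In TBI+Prozac 1 probe passed without TBI array 3. With all arrays, limma gave TBI+Prozac 11 channel probes at an unadjusted p under 0.05, and the lowest adjusted p was 0.218. Median differences from TBI were 0.03, 0.20 and 0.03 for the channel probes with imipramine, Prozac and Zoloft, and 0.20, 0.15 and 0.01 for all probes. The channel medians minus those of all probes were −0.17, 0.06 and 0.01. Without the arrays high in Ttr these became 0.02, 0.08 and 0.19, and with slide as a block −0.10, 0.09 and 0.11. With quantile normalization, which removes the general shift, the channel medians themselves were −0.21, 0.02 and 0.00. The 11 probes that had fallen in TBI were above their TBI means in 8 of 11 cases with imipramine (median 0.07), in 11 with Prozac (0.20) and in 11 with Zoloft (0.21). Of all probes, only 16.3% were below their TBI means with imipramine and 19.1% with Prozac, and 47.6% with Zoloft. A value above TBI was thus common among all probes with imipramine and Prozac. Since TBI arrays chose these probes and also serve as the reference here, the counts are descriptive.

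Cacna1i probe 1 was higher with Zoloft than in TBI. It read −1.30, −1.28 and −0.97 with Zoloft, against −1.96, −1.79 and −1.78 in TBI and −0.75 and −0.65 in Sham, so the Zoloft arrays lay between the other groups without overlap. The difference from TBI was 0.66 ± 0.12 (SE, adjusted p = 0.0279), or 1.58-fold. Probe 2 gave 0.36 ± 0.14 (SE, adjusted p = 0.227). The TBI arrays shared a slide with Prozac array 1 and the Zoloft arrays were on another slide. With slide as a block the difference of probe 1 was 0.72 and its adjusted p 0.998. The call was also lost without TBI array 1 or 2 and without Zoloft array 2 or 3, and without TBI array 3 the count of calls rose to 3. With imipramine and Prozac, probe 1 differed from TBI by 0.45 (adjusted p = 0.0622) and 0.37 (adjusted p = 0.36).

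Kcne5 probe 2 was higher with imipramine than in TBI. Its values were −5.37, −5.57 and −5.12 with imipramine and −6.51, −6.57 and −5.82 in TBI, where 1 of 3 arrays was above background. The difference was 0.94 ± 0.20 (SE, adjusted p = 0.0282), and with slide as a block it was 0.85 with an adjusted p of 0.772. It passed under 1 of 5 scalings and was 0.31 with normexp. The call was lost without TBI array 1 or 2 and without any 1 of the 3 imipramine arrays, and the count rose to 2 without TBI array 3. Probe 1 differed by 0.51 ± 0.19 (SE, adjusted p = 0.159).

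The drug groups formed 3 pairs, each tested with p-values adjusted over all probes within a pair. Between TBI+Prozac and TBI+Imipramine 0 channel probes passed (beside 0.00577% of all probes), with 4 at an unadjusted p under 0.05 in limma and a lowest adjusted p of 0.72. Such a result does not show that the drugs acted alike: the 95% interval for Cacna1i probe 1 ran from −0.33 to 0.18, that for Kcnn4 probe 2 from −2.01 to 0.50. TBI+Zoloft differed from TBI+Imipramine in 3 channel probes (beside 5.29% of all probes) and from TBI+Prozac in 2 (beside 3.69%). All were lower with Zoloft, as were 5.25% and 3.61% of all probes. An F test over the 3 drug groups called 2 probes, Kcne5 probe 1 and Cacna2d3 (beside 3.18% of all probes). Neither passed that test without imipramine array 1 or 2, any 1 of the 3 Prozac arrays, or Zoloft array 2 or 3, and Cacna2d3 did not without Zoloft array 1.

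Kcne5 probe 1 read −5.65, −6.12 and −6.08 with Zoloft, −5.19, −5.18 and −5.33 with imipramine, and −4.82, −5.04 and −5.02 with Prozac. The Zoloft arrays were below all 6 others. The differences were −0.72 ± 0.19 (SE, adjusted p = 0.0465) against imipramine and −0.99 ± 0.19 (SE, adjusted p = 0.0215) against Prozac. Probe 2 gave −0.78 (adjusted p = 0.0427) and −0.75 (adjusted p = 0.0563). Cacna2d3, an alpha2delta subunit that carries calcium channels to the terminal, read −1.505, −1.27 and −1.25 with Zoloft and −0.82, −0.73 and −0.72 with Prozac, 1.5-fold lower (−0.59 ± 0.12 SE, adjusted p = 0.0292). Cacnb2, a beta subunit, read −5.98, −5.60 and −5.39 with Zoloft and −4.83, −5.18 and −5.08 with imipramine (−0.63 ± 0.16 SE, adjusted p = 0.0432). It was above background on 1 of 3 Zoloft arrays. The 3 calls against imipramine passed under 1 of 5 scalings, and with normexp the differences were −0.01 for Cacnb2 and −0.02 and 0.02 for the Kcne5 probes. Against Prozac, Cacna2d3 passed under 2 of 5 and Kcne5 probe 1 under 4 of 5, the latter at −0.10 with normexp. None of these 5 calls between drugs passed without Zoloft array 2 or without any 1 array of the other drug. On the second slide, which held 8 of the 9 drug-treated arrays, the sizes were alike and no call passed: adjusted p was 0.0552, 0.0524 and 0.0847 for Kcne5 probe 1, Kcne5 probe 2 and Cacnb2 between Zoloft and imipramine. Between Zoloft and Prozac it was 0.116 for Kcne5 probe 1 and 0.124 for Cacna2d3.

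**Figure D4:**
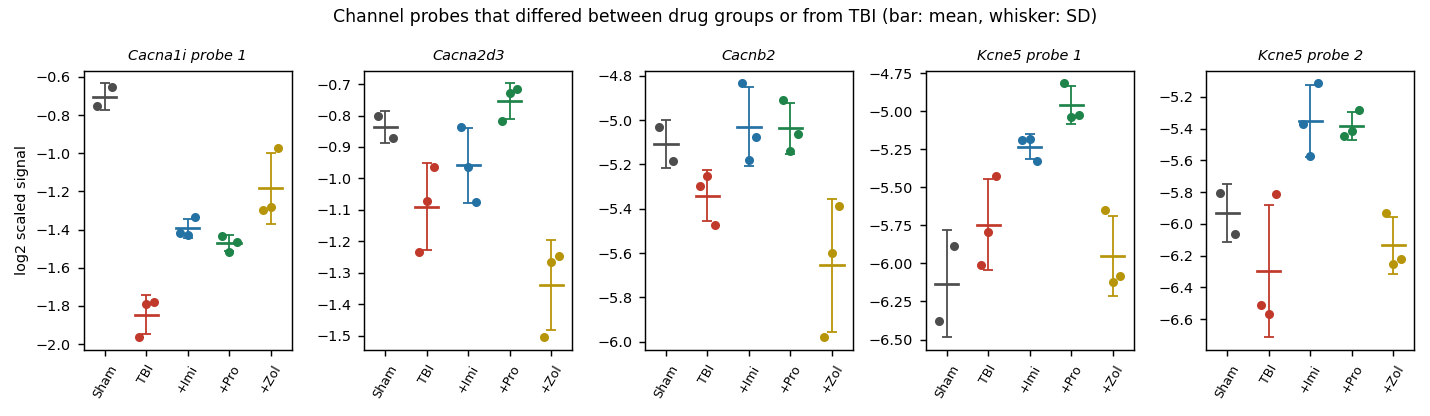
Log2 scaled signal of the 5 channel probes that differed between drug groups or from TBI, with 1 point per array, bars at the mean and whiskers of 1 SD. For Cacna2d3, Cacnb2 and both Kcne5 probes the Zoloft points lie below the Prozac points, and for Cacna1i probe 1 the Zoloft points lie between TBI and Sham.

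A set of channel genes varied between arrays of 1 group rather than between groups. Kcne2, a single-span subunit known from choroid plexus and stomach, read 0.06 and 0.32 on imipramine arrays 1 and 2 and −3.29 on array 3. It read −0.97 on Prozac array 1 and −4.05 and −4.02 on the others, and −1.36, −0.40 and −2.89 with Zoloft. In Sham and TBI its values ran from −4.17 to −2.62. The 5 drug-treated arrays with the highest Kcne2 values were those with the highest Ttr values. Ttr read 6.63, 6.69 and 0.79 with imipramine, 6.44, −2.61 and −2.63 with Prozac, and 6.11, 6.65 and 0.78 with Zoloft. In Sham it read −0.83 and 4.86, and in TBI −0.68, 0.90 and 4.83. Kcne2 did not pass in any comparison: its largest difference, 2.59 ± 1.03 (SE) between TBI+Imipramine and TBI, had an adjusted p of 0.194.

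2 channel probes left out by the background filter had the same pattern and were looked at after their values were seen. Kcnj13, the Kir7.1 inward rectifier of choroid plexus and retinal epithelium, read −1.02 and −0.61 on imipramine arrays 1 and 2, −2.42 on Prozac array 1 and −2.55 and −1.999 on Zoloft arrays 1 and 2. On the other 9 arrays it was −4.43 or less. A second probe of Kcnq1, the Kv7.1 pore that pairs with Kcne2, read −3.58 and −3.36 on imipramine arrays 1 and 2, −4.54 on Prozac array 1 and −4.75 and −3.58 on Zoloft arrays 1 and 2, and −5.69 or less elsewhere. Each was above background on 6 of 14 arrays. The kept Kcnq1 probe was less divided. It read −5.40, −5.34 and −6.28 with imipramine, −5.88, −5.98 and −5.93 with Prozac, and −5.57, −5.75 and −5.99 with Zoloft. In Sham it read −5.76 and −5.58, and in TBI −7.23, −6.85 and −5.98. How far the amount of choroid plexus in a sample set these values was not tested.

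**Figure D5:**
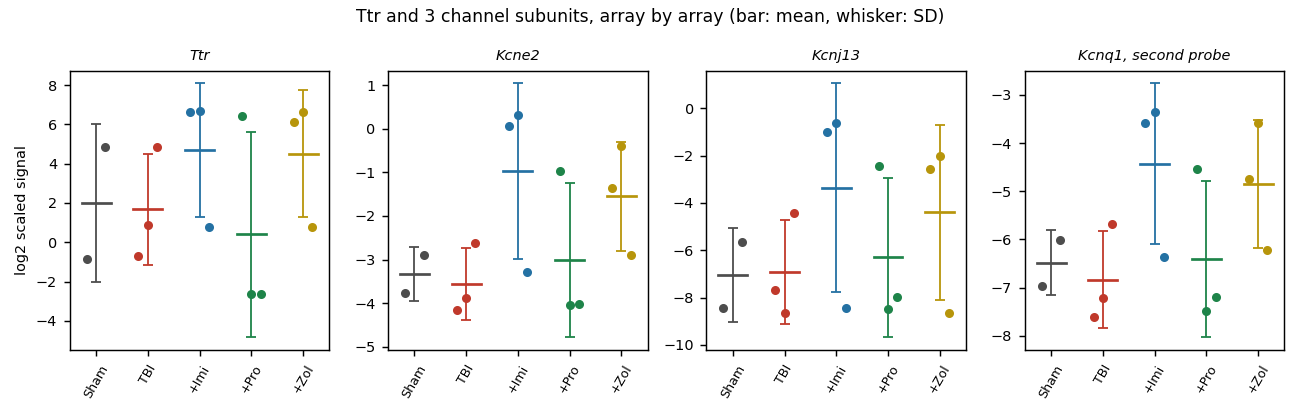
Log2 scaled signal of Ttr, Kcne2, Kcnj13 and the second Kcnq1 probe, with 1 point per array, bars at the mean and whiskers of 1 SD. In the drug groups the arrays high in Ttr, at 6.11 or more, are also the highest for the 3 channel probes.

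Of the channel probes 63 were not kept, 47 of which were well above background on no array, and 41 channel genes had no kept probe. These include the neuronal genes Kcna2 and Kcnd3, the glial inward rectifier Kcnj10, and Scn9a. The kept probes were uneven in depth as well: 74 were above background on all 14 arrays, 33 were not, and 6 were kept through 1 group only. A probe kept through 1 group had to be high in that group, so counts over kept probes are not counts over all channel genes.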

How the data were processed

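Total RNA from rat hippocampus was amplified, labelled and read by the authors on 1-colour Agilent arrays, 1 array per rat. The deposited Agilent Feature Extraction files hold spot intensity, background-subtracted and not scaled between arrays, and their flags are well-above-background, saturation and outlier calls. The authors' own table of the same arrays holds intensity divided by a constant per array. Its per-array miRNA companions were not used here. Here the log2 processed signal was taken minus each array's 75th percentile over probes above background, after the study's methods. Control spots and outlier spots were left out, spots of a probe were averaged, and 17322 of 30367 probes above background on all arrays of at least 1 group were kept. Accessions were named through RefSeq (GRCr8), which gave 18643 probes a symbol. All 14 arrays, grouped by sample title, entered 1 limma 3.58.1 fit (R 4.3.3) with a mean per group and Benjamini-Hochberg adjustment over all kept probes, at a threshold of 0.05. Genes named were all passing members, with a list of hippocampal members and of partners. Members, lists and tests were chosen with earlier results of these data known. Some single members are not reported here by name. The number of arrays limits the precision. The steps were tested on simulated data. Alternatives covered scaling, background correction, filters, blocks, left-out arrays and the methods' t-test.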

Additional observations from a re-analysis of the deposited data

Results flagged for a closer look

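Several differences between drug groups met the threshold by a test of the difference itself. Across the 3 drug groups the F test gave an adjusted p of 0.0461 for Cacna2d3 and 0.0332 for Kcne5 probe 1. Between TBI+Zoloft and TBI+Imipramine, the log2 differences were −0.63 for Cacnb2, −0.72 for Kcne5 probe 1 and −0.78 for Kcne5 probe 2. Between TBI+Zoloft and TBI+Prozac, they were −0.59 for Cacna2d3 and −0.99 for Kcne5 probe 1. All 3 of 3 Zoloft arrays lay below all 3 arrays of the other drug in each of these pairs, in probes chosen by a test on those arrays. Of all probes, 5.25% passed as lower with Zoloft than with imipramine and 3.61% as lower than with Prozac. Most of the channel differences depended on the scaling. Cacnb2 and both Kcne5 probes passed between Zoloft and imipramine under 1 of 5 scalings, with differences of −0.01, −0.02 and 0.02 under normexp. Between Zoloft and Prozac, Cacna2d3 passed under 2 of 5 and Kcne5 probe 1 under 4 of 5, the latter at −0.10 with normexp. None of these 7 results passed in the arrays of the second slide alone.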

How the results depend on the processing

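Shares of all probes were taken only for the processing described above. A changed count under another setting therefore cannot be read as particular to the channels. Counts of channel probes past the threshold are given against Sham in the order TBI alone, imipramine, Prozac and Zoloft, where they were 14, 17, 8 and 7. They became 22, 43, 18 and 14 with quantile normalization, 23, 42, 21 and 15 with the percentile over all probes, and 23, 43, 20 and 15 with the authors' table. Against TBI in the same drug order, where they were 1, 0 and 1, each of these settings gave 0, 0 and 3. The F test over the drug groups, 2 before, gave 1, 0 and 0. Zoloft against Sham gave 2 with normexp on median signals, 1 with no filter on dim probes, 11 with slide as a random block, 3 with Ttr as a covariate and 3 with the replicate block. Imipramine against TBI gave 0 with normexp, with no filter, with the filter of all 14 arrays above background and with slide as a fixed block, and Zoloft against TBI gave 0 with no filter and with slide as a fixed block. The F test gave 0 with normexp, no filter, the fixed slide block or the second slide alone, and 1 with the filter of all 14 arrays or Ttr as a covariate.

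The methods' t-test, at an unadjusted p with their fold limit, called 12, 30, 18 and 12 against Sham and 6, 9 and 1 against TBI. With Benjamini-Hochberg adjustment it called 0, 5, 0 and 0 against Sham and 0, 0 and 0 against TBI. Without the arrays high in Ttr, an alternative chosen after seeing the data like the Ttr covariate and the normexp setting, the counts were 9, 2, 3 and 4 against Sham, 0, 1 and 5 against TBI and 0 by the F test. Leaving out 1 array at a time gave 4 to 29, 6 to 19, 3 to 6 and 1 to 7 against Sham, 0 to 2, 0 to 1 and 0 to 3 against TBI, and 0 to 2 by the F test.

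Of 929 recomputed values of single probes, 581 kept their call, 347 kept their direction without passing and 1 reversed: Kcne5 probe 2 between Zoloft and imipramine, at 0.0182 with normexp. The cause was not tested. Normexp on mean signals was not run, since the files used hold median signals. Replicate numbers did not pair the samples: correlations of same-numbered deviations ran from −0.23 to 0.23. With the replicate block, the counts were 14, 17, 7 and 3 against Sham, 1, 0 and 1 against TBI and 0 by the F test. Signal over background limits 33 of the 107 probes, and with 2 Sham arrays each fold against Sham rests on a pair of animals.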
